A study of Mus musculus with 24 samples.

Results

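The 33 genes described here are established or commonly listed targets of NRF2 in glutathione, thioredoxin, NADPH and detoxification metabolism, followed in mouse peritoneal macrophages in 3 activation states with and without the immunoproteasome inhibitor ONX-0914. They were chosen by name, not by a threshold in these data, but with earlier results of these data known. All 33 were found by symbol among the 54532 features of the deposited count table. By role they are glutathione synthesis, recycling and cystine import (Gclc, Gclm, Gss, Gsr, Slc7a11), thioredoxin and peroxiredoxin (Txn1, Txnrd1, Prdx1, Srxn1), NADPH-generating enzymes and their pathway partners (Me1, G6pdx, Pgd, Taldo1, Tkt), and peroxide-removing enzymes (Cat, Gpx1, Gpx4). The remaining roles are glutathione transferases (Gsta3, Gstm1, Gstp1, Mgst1, Mgst2), heme and bilirubin (Hmox1, Blvra, Blvrb), quinone, carbonyl and other detoxification (Nqo1, Cbr3, Ephx1, Aox1, Esd, Ugdh), and export and growth control (Abcc1, Osgin1). All 33 passed the filter on low counts that kept 14692 genes for testing.

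NRF2, encoded by Nfe2l2, is a transcription factor that KEAP1 holds in the cytoplasm and hands to a CUL3 ubiquitin ligase for destruction by the proteasome. Electrophiles and oxidants modify KEAP1, and the autophagy receptor p62 (Sqstm1) can bind KEAP1 in place of NRF2. NRF2 that escapes enters the nucleus, pairs with a small MAF protein and binds antioxidant response elements near genes that make and recycle glutathione, supply NADPH and clear electrophiles. In macrophages these genes are known for protection during the oxidative burst and for restraint of inflammatory output.

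The study asked how targeting the immunoproteasome acts on macrophage polarization, and its title names NRF1 and an NRF2-p62 axis. It has 6 groups of 4 libraries: M0 cells labelled as control, M1 cells given LPS and IFN-γ, M2 cells given IL4, and each of these with ONX-0914, an inhibitor selective for the catalytic immunoproteasome subunit LMP7 (PSMB8). Per the labels each of the 4 replicates is independent and pools peritoneal macrophages of 2 to 3 mice to 50000 cells. Polyadenylated RNA was sequenced from paired ends. No source used here gives doses, treatment times, mouse strain, sex or age. Because a library is a pool of mice, p-values measure the spread between pools.

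The core TGACNNNGC is often given for antioxidant response elements. The letters of that core were searched for on both strands in the 250 bases before each RefSeq start site (GRCm38.p6). Elements whose core departs from these letters were not searched for. A promoter entry existed for 29 of the 33 genes, all but Gclc, Gsr, Hmox1 and Abcc1. The core occurred before a start of 8 of these 29 (27.59%), against 11.52% of all 27025 genes with an entry. The core followed directly by an A occurred at 3 of the 29 (10.34%) and at 2.8% of all genes. Every match of that longer form is also a match of the core. The 9 matches are shown because they hold the core letters of the elements that NRF2, for which the gene group is named, binds. Each is given with 10 bases on either side, 5′ to 3′ on the strand on which the core reads TGAC first, with the core in capitals.
Gclm: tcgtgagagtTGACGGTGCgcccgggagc
Prdx1: ctacgggggaTGACTCAGCgctttccctg
Mgst1: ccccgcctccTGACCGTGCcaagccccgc
Txnrd1: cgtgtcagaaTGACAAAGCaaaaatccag
Gsta3: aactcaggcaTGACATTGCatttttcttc
Blvra: ggcggagcctTGACCGAGCaattcccgtg
G6pdx: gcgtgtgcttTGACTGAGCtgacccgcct
Ugdh, distal: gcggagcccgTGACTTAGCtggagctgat
Ugdh, proximal: ccgaactgtaTGACCACGCcccttgagga

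These windows lie at chr3:122245413-122245441, chr4:116685456-116685484, chr6:138140461-138140489, chr10:82859104-82859132, chr1:21240454-21240482, chr2:127070598-127070626, chrX:74428919-74428947, chr5:65435956-65435984 and chr5:65435918-65435946, in that order. Those of G6pdx, Mgst1 and the proximal Ugdh match fall in an exon of the GENCODE M21 annotation, and the other 6 lie outside annotated exons. A letter match is a description of the sequence, not evidence of binding, and the absence of a match says only that the letters are not in the window searched. The 8 genes with a match differed in direction. As described below, Gclm, Prdx1 and Mgst1 rose with ONX-0914 in all 3 states, Txnrd1 fell in M0 and rose in M2, Blvra fell in M1 and M2, and G6pdx fell in M0 and M1. Gsta3 was called higher in M0 and M2 and Ugdh in M2, calls that single libraries ended for Gsta3 in M0 and for Ugdh.

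The 2 promoters shown at length belong to genes that were called higher in every inhibitor comparison. The Gclm window (chr3:122245307-122245556, plus strand) and the part of the Prdx1 window outside annotated exons (chr4:116685349-116685543, plus strand) read as follows, with the core match in capitals as it appears on the gene's strand.
Gclm: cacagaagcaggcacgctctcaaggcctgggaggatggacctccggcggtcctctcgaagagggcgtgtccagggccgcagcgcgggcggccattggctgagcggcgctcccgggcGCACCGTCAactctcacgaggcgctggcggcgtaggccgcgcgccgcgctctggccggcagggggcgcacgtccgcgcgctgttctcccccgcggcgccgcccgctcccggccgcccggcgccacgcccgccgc
Prdx1: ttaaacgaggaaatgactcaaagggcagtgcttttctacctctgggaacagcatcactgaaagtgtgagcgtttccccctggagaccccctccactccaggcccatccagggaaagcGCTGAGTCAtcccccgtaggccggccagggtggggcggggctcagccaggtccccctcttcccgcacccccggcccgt

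Libraries held between 18230924 and 22882972 counts. Replicate 2 of the M1 group stood apart from the other 3 M1 libraries. Its mitochondrial share of counts was 0.3% against 1.07 to 1.14%, its 10 most abundant genes held 13.1% of counts against 10.3 to 10.4%, and its lowest correlation with another M1 library was 0.976. Within the 5 other groups the lowest correlation of any pair was 0.9908. Counts of called genes over the 33 and over 3 related lists are given with and without it below, and single genes where leaving it out changes the call. All 8 macrophage markers searched (Adgre1, Cd68, Csf1r, Itgam, Lyz2, Gata6, Icam2, Mertk) were detected, with a summed level of 12523 to 14540 counts per 1e6 (CPM, scaled by TMM) in M0 libraries.

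Markers of other cells moved with the inhibitor. The sum of 7 B cell markers went from 109.5 to 62.8 CPM in M0, from 81.8 to 42.3 CPM in M1 and from 117 to 63.9 CPM in M2, with no overlap of libraries in any state. Of these 7 markers 7, 6 and 7 were called lower in M0, M1 and M2. The summed macrophage markers were lower with the inhibitor too, at 10470 to 11606 CPM against 12523 to 14540 CPM in M0. The corresponding ranges were 9037 to 9494 against 11543 to 14164 CPM in M1 and 10040 to 11285 against 12445 to 13741 CPM in M2. The 8 macrophage markers did not all fall. Called higher and lower were 1 and 2 in M0, 1 and 5 in M1, and 0 and 4 in M2. Of all tested genes 9.54% and 11.4% were called higher and lower in M0, 16.6% and 27.7% in M1, and 17.6% and 18.8% in M2. Their median log2 change was 0.00 in M0, -0.54 in M1 and -0.27 in M2. Sums of 6 mesothelial and fibroblast markers overlapped between treated and untreated libraries in every state, with group means of 276 to 393 CPM. The markers of T and NK cells (Ncr1 at 0 in all 6 groups), of mast cells and basophils, of neutrophils (S100a9 and Ly6g at 0 in all 6 groups) and of eosinophils (Epx at 0 in all 6 groups) each summed to at most 19.4 CPM in any group mean. With the inhibitor the T and NK cell sum went from 2.40 to 2.85 CPM to 1.19 to 1.77 CPM in M0 and from 17.7 to 22.9 CPM to 7.92 to 12.8 CPM in M1, and overlapped in M2. The eosinophil sum went from 7.96 to 8.51 CPM to 5.94 to 6.05 CPM in M1 and from a mean of 17.4 CPM to one of 12.4 CPM in M2, with no overlap, and overlapped in M0. The neutrophil sum went from 4.07 to 5.40 CPM to 2.28 to 3.37 CPM in M0 and from 3.81 to 5.41 CPM to 2.38 to 3.32 CPM in M2, and overlapped in M1. Mast cell and basophil sums separated in M2 (0.772 to 1.13 against 0.0992 to 0.402 CPM) and overlapped in M0 and M1. Only 1 marker each of T and NK cells, eosinophils, neutrophils, and mast cells and basophils passed the filter on low counts. The part of these cell types in the results below was not tested. In bulk RNA, fewer cells of a type and less RNA per cell cannot be told apart.

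In untreated M0 cells the 33 genes spanned more than 3 orders of magnitude in level per kilobase of annotated exon. Txn1, the main cytosolic thioredoxin, stood highest at 547 ± 40.2 CPM per kilobase (mean ± SD, n = 4), and Gpx1, the abundant selenium-dependent glutathione peroxidase, followed at 537 ± 38.2, a gap smaller than their spread. Prdx1 at 356 ± 20.7, Gstm1 at 313 ± 19.8, Taldo1 at 245 ± 20.1 and Hmox1 at 183 ± 9.73 CPM per kilobase came next. The lowest were Mgst2 at 0.337 ± 0.0363, Gsta3 at 0.230 ± 0.0600 and Aox1 at 0.111 ± 0.0284 CPM per kilobase. All other levels below are TMM-scaled CPM, not divided by length, and library values are listed for replicates 1 to 4, a numbering that carries no order.

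With ONX-0914, more of the 33 genes were called higher than lower in each activation state. In M0, 18 were called higher and 3 lower, where 9.54% of all tested genes were called higher and 11.4% lower (21.0% in either direction). In M1, 18 were called higher and 7 lower, against 16.6% and 27.7% of all genes (44.3% in either direction). In M2, 27 were called higher and 3 lower, against 17.6% and 18.8% of all genes (36.4% in either direction). The median log2 change of the 33 was 0.22 in M0, 0.37 in M1 and 0.51 in M2, and that of all tested genes was -0.00, -0.08 and -0.00. The summed level of the 33 was 6995 ± 331 CPM in M0 and 7724 ± 329 with the inhibitor, 10770 ± 257 and 13130 ± 408 in M1, and 6163 ± 226 and 8333 ± 169 in M2 (mean ± SD, n = 4).

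Calls are edgeR quasi-likelihood tests with Benjamini-Hochberg adjusted p under 0.05 over all 14692 genes. In M1 the falls depended on the fit more than the rises. Fitting the M1 libraries with and without inhibitor alone left 18 genes of the group higher and 1 lower in M1. The falls of Txn1, Tkt, Gpx4, Slc7a11, Blvra and Abcc1 were not called in that fit, and that of G6pdx was. In that fit the share of higher calls among all calls in M1 went from 37.4% to 51.9%, with a shift of 0.0927 in the median log2 change of all genes. Without M1 replicate 2, 19 of the 33 were called higher and 6 lower in M1, 27 higher and 4 lower in M2, and 18 higher and 6 lower in M0. Without M0 replicate 4, 5 were called lower in M0. With a library left out in turn, the genes called higher numbered 15 to 18 in M0, with 15 without M0 replicate 4 or treated M0 replicate 1 or 4, and 18 to 19 in M1 and 25 to 27 in M2. Calls over all tested genes moved as well. They numbered 3079 in M0 with all libraries and 2463 to 4340 with a library left out. The corresponding numbers were 6514 and 5968 to 6804 in M1, and 5345 and 4654 to 6384 in M2.

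The 3 inhibitor comparisons share no libraries. Called higher in all 3 were 14 of the 33 genes, where 5.62% of all tested genes were: Gclm, Gsr, Prdx1, Srxn1, Me1, Taldo1, Gstp1, Mgst1, Blvrb, Nqo1, Cbr3, Ephx1, Aox1 and Osgin1. None was called lower in all 3 by edgeR, where 6.87% of all genes were. At an unadjusted p under 0.05, 4 of the 33 were lower in all 3 (Blvra, Gpx4, Slc7a11 and Tkt), and DESeq2 called the same 4. Txn1, Txnrd1 and Abcc1 were called in opposite directions in different states, and Hmox1 was called in none. Of the 14, 4 rest in M0 on calls that single libraries end. The M0 call of Taldo1 was lost without M0 replicate 2, 3 or 4 or treated M0 replicate 1 or 4 (log2 change 0.15 to 0.17, adjusted p = 0.0674 to 0.0971). That of Cbr3 was lost without M0 replicate 4 or treated replicate 1 or 4 (0.22 to 0.27, adjusted p = 0.0516 to 0.125), Nqo1 without M0 replicate 3 or treated replicate 2 or 4 (0.48 to 0.52, adjusted p = 0.0636 to 0.0833), and Osgin1 without M0 replicate 1 or 2 or treated replicate 2 (0.37 to 0.41, adjusted p = 0.0549 to 0.0726).

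**Figure D1:**
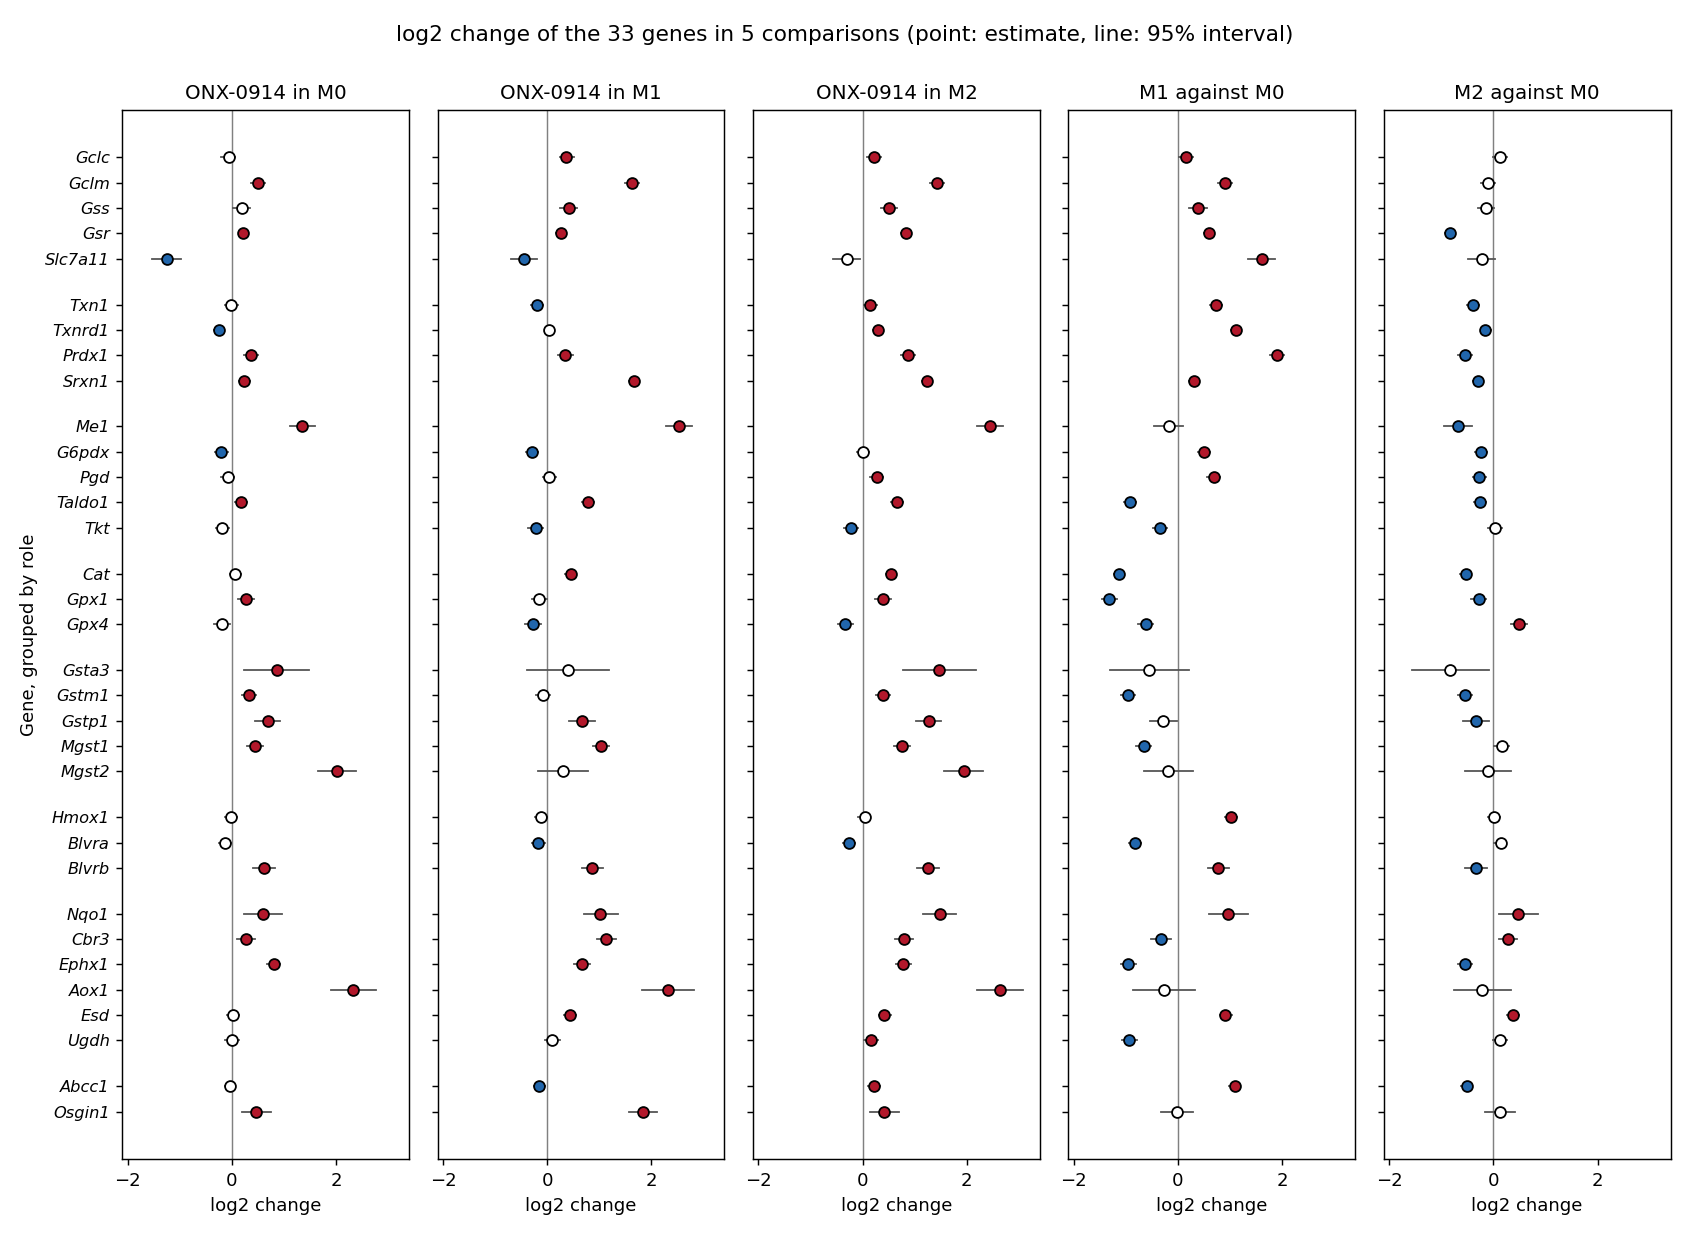
Log2 change of each of the 33 genes (rows, grouped by role) in the 3 inhibitor comparisons and in M1 and M2 against M0 (columns). Filled marks are calls at an adjusted p under 0.05 and bars are 95% intervals. Aox1 and Mgst2 lie farthest to the right in the M0 inhibitor column and Me1 and Aox1 in those of M1 and M2, Slc7a11 is below 0 in all 3 of them, and Hmox1 is near 0 in all 3.

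In glutathione synthesis, recycling and cystine import, ONX-0914 raised the modifier subunit of the rate-limiting ligase far more than its catalytic subunit. Of the 5 genes, 2 were called higher and 1 lower in M0, 4 higher and 1 lower in M1, and 4 higher in M2. The shares of all tested genes were 9.54% higher and 11.4% lower in M0, 16.6% and 27.7% in M1, and 17.6% and 18.8% in M2. Gclm (ENSMUSG00000028124, chr3:122245557-122270732) encodes the modifier subunit of glutamate-cysteine ligase. Its levels were 50.8, 50.7, 48.5 and 48.8 CPM in M0 and 70.7, 72.2, 70.9 and 66.9 CPM with the inhibitor. In M1 they were 101, 77.7, 102 and 90.2 CPM without and 299, 289.6, 285 and 278 CPM with it, and in M2 48.5, 48.4, 45.8 and 43.1 CPM without and 124, 123, 122 and 134 CPM with it. Treated and untreated libraries did not overlap in any state, and the treated M1 libraries were the highest of all 24. The log2 changes were 0.50 ± 0.064 (SE), adjusted p = 1.78e-06 in M0, 1.63 ± 0.064 (SE), adjusted p = 4.44e-17 in M1 and 1.43 ± 0.065 (SE), adjusted p = 6.97e-16 in M2. Gclc, the catalytic subunit, was at 34.6 ± 3.05 CPM in M0 and 33.1 ± 0.566 with the inhibitor, and rose in M1 (log2 change 0.37, adjusted p = 3.04e-05) and M2 (0.22, adjusted p = 0.00902).

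Slc7a11 (ENSMUSG00000027737, chr3:49892526-50443614), the cystine-importing chain of system xc-, went against the group. Its levels were 46.1, 38.1, 37.96 and 51.5 CPM in M0 libraries and 19.96, 17.8, 17.3 and 17.8 CPM with ONX-0914, a 2.38-fold fall (log2 change -1.25 ± 0.13 (SE), adjusted p = 6.67e-08). In M1 it stood at 163, 88.9, 127 and 149.8 CPM without and 83.9, 103, 99.7 and 101 CPM with the inhibitor. That fall was smaller, at -0.45 ± 0.12 (SE), adjusted p = 0.00332, the groups overlapped, and it was not called in a fit of the M1 libraries alone (-0.36, adjusted p = 0.12). Untreated M1 replicate 2, at 88.9 CPM, was the only untreated M1 library within the treated range. In M2 the levels were 40.6, 33.4, 37.6 and 37.9 and 30.03, 28.5, 29.5 and 33.1 CPM, and the log2 change of -0.30 had an adjusted p of 0.0677, which 7 of the settings and left-out libraries brought under 0.05, M1 replicates 1 and 2 among them (lowest 0.00102). Gsr, which reduces oxidized glutathione, rose in all 3 states, by log2 0.22 in M0, 0.26 in M1 and 0.83 in M2. Gss, glutathione synthetase, rose in M1 (0.41) and M2 (0.51), and in M0 (change 0.19, adjusted p = 0.0787) only without M0 replicate 3 or treated replicate 4 (adjusted p = 0.0178 and 0.0449). Exons of Gss overlap those of Acss2 on the opposite strand, which held 25.2% as many counts, and whether the counting used strand is not given in those sources.

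In the thioredoxin and peroxiredoxin group, the inhibitor raised Prdx1 and Srxn1 in every state and left Txn1 and Txnrd1 mixed. Of the 4 genes, 2 were called higher and 1 lower in M0, the same counts in M1, and all 4 higher in M2. Among all tested genes 9.54% were higher and 11.4% lower in M0, 16.6% and 27.7% in M1, and 17.6% and 18.8% in M2. Prdx1 (ENSMUSG00000028691, chr4:116685544-116700822) encodes a peroxidase that thioredoxin recharges. It was at 783, 750.2, 679 and 756 CPM in M2 and 1347, 1402, 1282 and 1413 CPM in M2 with ONX-0914, a log2 change of 0.88 ± 0.067 (SE), adjusted p = 4.85e-11. Its rises in M0 (0.37) and M1 (0.35) were smaller.

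Srxn1 (ENSMUSG00000032802, chr2:152105516-152111376), sulfiredoxin, which rescues over-oxidized peroxiredoxins, was at 166, 148, 155 and 156 CPM in M0 and 196, 187, 172 and 184 CPM with the inhibitor. In M1 it was at 197, 203, 189 and 184 and 629.7, 603, 623 and 605 CPM, and in M2 at 127, 127, 126 and 131 and 298, 302, 294 and 309 CPM. The M0 step was small and the M1 step 3.18-fold. Log2 changes were 0.24 ± 0.048 (SE), adjusted p = 0.000502 in M0, 1.67 ± 0.048 (SE), adjusted p = 1.3e-19 in M1 and 1.24 ± 0.048 (SE), adjusted p = 4.7e-17 in M2. Txnrd1, the cytosolic thioredoxin reductase, fell in M0 (-0.25, adjusted p = 0.000207), had a log2 change of 0.04 in M1 (adjusted p = 0.508) and rose in M2 (0.29, adjusted p = 1.19e-05). Txn1 fell in M1 (-0.20, adjusted p = 0.00776), but not when the M1 libraries were fitted alone (-0.10, adjusted p = 0.225). Its M2 change of 0.15 (adjusted p = 0.0441) was a call that 14 settings and left-out libraries ended, the replicates 2, 3 and 4 of M2 and 1, 2 and 3 of treated M2 among them (0.12 to 0.16, adjusted p = 0.05 to 0.153).

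Among the NADPH-generating enzymes and their pathway partners malic enzyme changed most. Of the 5 genes, 2 were called higher and 1 lower in M0, 2 higher and 2 lower in M1, and 3 higher and 1 lower in M2. Over all tested genes the shares were 9.54% higher and 11.4% lower in M0, 16.6% and 27.7% in M1, and 17.6% and 18.8% in M2. Me1 (ENSMUSG00000032418, chr9:86581371-86695953), cytosolic malic enzyme, was at 5.79, 6.72, 6.23 and 7.99 CPM in M0 and 17.9, 18.9, 14.7 and 17.2 CPM with ONX-0914. It was at 7.13, 4.78, 5.89 and 5.85 and 32.1, 33.2, 35.6 and 36.04 CPM in M1, and at 4.36, 4.75, 3.34 and 4.49 and 22.4, 20.5, 22.05 and 26.6 CPM in M2. Every treated library exceeded every untreated library of its state. The rise was 2.56-fold in M0 (log2 change 1.35 ± 0.11 (SE), adjusted p = 9.07e-10), 5.77-fold in M1 (2.53 ± 0.12 (SE), adjusted p = 1.39e-15) and 5.43-fold in M2 (2.44 ± 0.12 (SE), adjusted p = 4.23e-15).

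Genes of the pentose phosphate pathway changed less and not together. Taldo1, transaldolase, rose in all 3 states, by log2 0.18 in M0, 0.78 in M1 and 0.66 in M2. Tkt, transketolase of the same non-oxidative branch, fell in M1 (-0.22, adjusted p = 0.00723) and M2 (-0.23, adjusted p = 0.00681). Replicate 2 of M1 had 306 CPM of Tkt against 237 to 239 CPM in the other 3 M1 libraries, and without it the M1 change was -0.12 (adjusted p = 0.0338). In M0 the change was -0.18 (adjusted p = 0.0503), and it was called under 11 of the settings and left-out libraries tried. G6pdx, which opens the oxidative branch, fell in M0 (-0.20, and -0.17 with an adjusted p of 0.0588 without treated M0 replicate 3) and M1 (-0.29), with a log2 change of 0.01 in M2. Its exons overlap those of Ikbkg on the opposite strand, which held 35.8% as many counts. Pgd, the next dehydrogenase, rose in M2 (0.27). In M1 its log2 change was 0.04 (adjusted p = 0.614) with all libraries and 0.13 (adjusted p = 0.0156) without M1 replicate 2.

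The peroxide-removing enzymes split. Cat, catalase, rose in M1 (log2 change 0.45, adjusted p = 2.83e-08) and M2 (0.55, adjusted p = 8.39e-10) and was at 169 ± 4.14 CPM without and 177 ± 11.5 CPM with inhibitor in M0. Gpx1 rose in M0 (0.27) and M2 (0.39), and in M1 its log2 change was -0.15 (adjusted p = 0.0858, and 0.0199 without M1 replicate 3). Gpx4, which reduces lipid hydroperoxides in membranes, fell in M1 (-0.27, adjusted p = 0.00473) and M2 (-0.33, adjusted p = 0.000793). In M0 its log2 change was -0.19 (adjusted p = 0.0609), called in 7 of the settings and left-out libraries, M0 replicate 4, treated M0 replicate 1 and M1 replicate 2 among them (adjusted p = 0.0107 to 0.0462). The M1 fall was not called in a fit of the M1 libraries alone (-0.17, adjusted p = 0.107).

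All 5 glutathione transferases rose with ONX-0914 in M0 and in M2, and 2 of 5 (Gstp1 and Mgst1) in M1. The share of all tested genes called higher was 9.54% in M0, 17.6% in M2 and 16.6% in M1. Mgst2 (ENSMUSG00000074604, chr3:51660360-51682677), a microsomal enzyme that can also conjugate leukotriene A4, was at 1.45, 1.18, 1.21 and 1.16 CPM in M0 libraries and 5.72, 4.67, 5.02 and 4.88 CPM with the inhibitor, a 4.06-fold rise (log2 change 2.02 ± 0.18 (SE), adjusted p = 2.41e-09). In M1 it was at 1.27, 0.831, 1.04 and 1.20 and 1.40, 1.80, 1.48 and 0.711 CPM, with a log2 change of 0.31 and a 95% interval of -0.17 to 0.79. In M2 it rose again, by log2 1.94, to a mean of 4.47 CPM. The log2 changes in M0 and M2 both lay above the upper bound of the M1 interval.

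Gstp1, a cytosolic transferase, was at 16.5, 16.04, 21.01 and 15.2 CPM in M0 and 30.9, 24.6, 23.6 and 31.4 CPM with ONX-0914 (log2 change 0.69 ± 0.12 (SE), adjusted p = 8.65e-05). In M2 it was at 14.2, 12.3, 15.4 and 12.6 and 35.99, 36.3, 29.9 and 29.3 CPM (1.27 ± 0.12 (SE), adjusted p = 1.83e-09), and in M1 it rose by log2 0.67. Its near-identical paralogs Gstp2 and Gstp3 held 0.7% and 0.1% as many counts. Mgst1 was at 134, 109, 123 and 133 CPM in M1 and 267, 248, 251 and 255 CPM with the inhibitor, a log2 change of 1.03 ± 0.074 (SE), adjusted p = 8.32e-12. It also rose in M0 (0.45) and M2 (0.76). Gstm1, the most abundant transferase here, rose in M0 (0.33) and M2 (0.39) and had a log2 change of -0.08 in M1 (adjusted p = 0.356). Gsta3 was at most at 1.83 CPM in any group mean. Its call in M0 (log2 change 0.87, adjusted p = 0.0423) was lost without replicate 1, 3 or 4 of either M0 group and under the replicate block (0.70 to 0.92, adjusted p = 0.0528 to 0.153), and in M2 it rose by 1.47 (adjusted p = 0.00114).

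Heme oxygenase did not follow the other genes. Hmox1 (ENSMUSG00000005413, chr8:75093621-75100589), which opens heme and is a textbook NRF2 target, was at 315, 330.0, 339 and 299.8 CPM in M0 and 331, 332, 309 and 295 CPM with the inhibitor. It was at 615, 722, 628 and 634 and 573, 602, 621 and 594 CPM in M1 and at 317, 338, 317 and 325 and 319, 348, 330.2 and 334 CPM in M2. Treated and untreated libraries overlapped in every state. The 95% intervals of the log2 change were -0.13 to 0.09 in M0, -0.23 to -0.01 in M1 and -0.08 to 0.15 in M2. Without M1 replicate 1 the M1 change was called lower (-0.15, adjusted p = 0.0461).

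Downstream of heme oxygenase, the biliverdin reductases moved apart. Blvrb, which reduces biliverdin and flavins, was at 104, 90.9, 96.6 and 80.1 CPM in M0 and 156, 144, 136 and 132 CPM with ONX-0914 (log2 change 0.61 ± 0.1 (SE), adjusted p = 5.17e-05). It was at 146, 213, 139 and 137 and 304, 275, 294 and 280.5 CPM in M1 (0.86 ± 0.1 (SE), adjusted p = 6.23e-08) and at 73.9, 76.5, 67.1 and 76.9 and 169.7, 187, 178 and 166 CPM in M2 (1.25 ± 0.1 (SE), adjusted p = 1.39e-10). The high untreated M1 value is that of replicate 2. Blvra, the main biliverdin reductase, fell in M1 (-0.17, adjusted p = 0.0181) and M2 (-0.26, adjusted p = 0.000483). The M1 call was lost without M1 replicate 2, without treated M1 replicate 3 or 4 and in 2 other fits (-0.16 to -0.08, adjusted p = 0.0511 to 0.35). In M0 the change of -0.13 (adjusted p = 0.0874) was called without M0 replicate 4, without M1 replicate 2 and by DESeq2 (adjusted p = 0.019 to 0.047).

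Of the 6 genes of quinone, carbonyl and other detoxification, 4 were called higher in M0, 5 in M1 and all 6 in M2. For all tested genes the shares called higher were 9.54%, 16.6% and 17.6%. Nqo1 (ENSMUSG00000003849, chr8:107388225-107403206), the quinone reductase often read as an NRF2 reporter, was low. It was at 3.12, 4.43, 4.10 and 4.41 CPM in M1 and 8.50, 7.38, 9.01 and 7.76 CPM with the inhibitor, and at 3.17, 2.0, 2.60 and 3.62 and 7.83, 7.48, 8.64 and 7.79 CPM in M2. The log2 changes were 1.02 ± 0.16 (SE), adjusted p = 5.95e-06 in M1 and 1.48 ± 0.16 (SE), adjusted p = 2.17e-08 in M2, and 0.59 in M0 (adjusted p = 0.0183). Cbr3, a carbonyl reductase, was at 6.37, 7.20, 6.18 and 5.60 CPM in M1 and 13.9, 14.1, 14.4 and 13.1 CPM with ONX-0914 (1.13 ± 0.09 (SE), adjusted p = 5.81e-11). It rose by log2 0.28 in M0 and 0.79 in M2.

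Ephx1, microsomal epoxide hydrolase, was at 35.6, 36.98, 37.3 and 35.4 CPM in M0 and 67.4, 61.7, 57.4 and 66.5 CPM with ONX-0914 (log2 change 0.80 ± 0.065 (SE), adjusted p = 3.99e-10), and rose in M1 (0.67) and M2 (0.78). Aox1, aldehyde oxidase, had the largest log2 change among the 33 in M2, from 0.826, 0.9999, 0.867 and 0.675 CPM to 5.59, 5.12, 4.27 and 6.05 CPM (2.64 ± 0.22 (SE), adjusted p = 1.79e-10). Its rises in M0 (2.33, to 4.94 ± 0.760 CPM) and M1 (2.31, to 4.03 ± 0.964 CPM) ended under the 5 CPM at which full values are given. Esd, S-formylglutathione hydrolase, rose in M1 (0.44) and M2 (0.42). Ugdh, which makes UDP-glucuronate for glucuronidation, was called in M2 alone (0.17, adjusted p = 0.0499), a call that 24 of the settings and left-out libraries ended, all 4 libraries of either M2 group among them (0.13 to 0.18, adjusted p = 0.0503 to 0.151).

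Osgin1 (ENSMUSG00000074063, chr8:119434124-119446256), an oxidative stress-induced growth inhibitor gene, was at 3.62, 3.83, 5.07 and 5.01 CPM in M0 and 4.42, 7.31, 6.21 and 6.45 CPM with the inhibitor (log2 change 0.47 ± 0.14 (SE), adjusted p = 0.0143). The M0 groups overlapped. In M1 it went from 4.01, 4.98, 3.70 and 4.78 CPM to 17.3, 14.5, 15.9 and 14.5 CPM, a 3.56-fold rise (1.83 ± 0.14 (SE), adjusted p = 1.49e-11). In M2 the change was 0.42 (adjusted p = 0.0152). Abcc1, a pump for glutathione conjugates, fell in M1 (-0.15, adjusted p = 0.0153) and rose in M2 (0.22, adjusted p = 0.00152). The M1 fall was not called when only the M1 libraries were fitted or without treated M1 replicate 4 (-0.14 to -0.06, adjusted p = 0.0531 to 0.44).

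**Figure D2:**
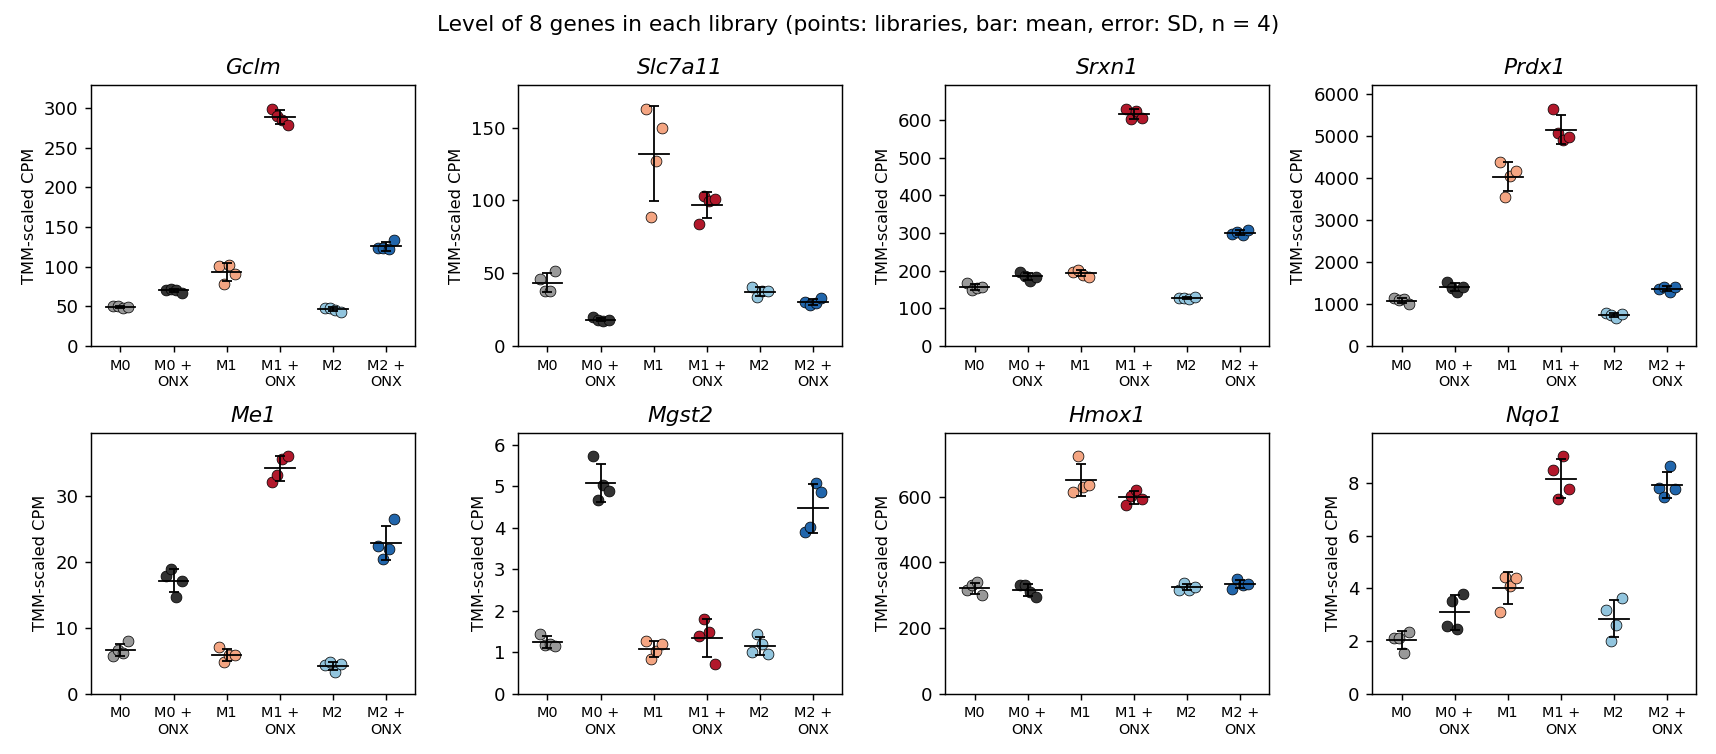
TMM-scaled CPM of 8 of the genes in each library of the 6 groups (points), with the group mean (bar) and SD (error, n = 4). Gclm, Srxn1 and Me1 are higher with ONX-0914 in every state, Slc7a11 is lower in M0, and Hmox1 is higher in M1 than in M0 and M2 at similar levels with and without the inhibitor.

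The inhibitor effect was then compared between activation states by the difference of effects in the same fit. In M1, 12 of the 33 genes had a more positive effect than in M0 and 3 a more negative one, where 6.90% and 12.4% of all genes did (19.3% in either direction). In M2, 16 had a more positive effect than in M0, where 3.44% of all genes did. None had a more negative one by edgeR, where 2.74% of all genes did (6.17% in either direction), and none did at an unadjusted p under 0.05 or by DESeq2. The median difference over the 33 was 0.09 for M1 and 0.32 for M2, and over all genes -0.06 and 0.01. Both differences use the same M0 libraries, so they share any deviation of that group. Without M1 replicate 2, 14 and 3 of the 33 differed in M1 and 19 in M2, and the genes called overall in the M2 difference went from 907 to 1672. Fitting only the 16 libraries involved gave 12 and 3 of the 33 for M1, while the share of positive differences among all calls went from 35.8% to 55.7%.

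Srxn1, Osgin1, Me1, Gclm and Cbr3 had the largest positive differences for M1. The difference was 1.43 ± 0.067 (SE), adjusted p = 7.87e-14 for Srxn1, 1.36 ± 0.19 (SE), adjusted p = 9.37e-06 for Osgin1 and 1.17 ± 0.17 (SE), adjusted p = 9.03e-06 for Me1. It was 1.14 ± 0.09 (SE), adjusted p = 7.82e-10 for Gclm and 0.85 ± 0.12 (SE), adjusted p = 1.25e-05 for Cbr3. All 5 were genes that rose in both states, and rose more in M1. Mgst2 was the reverse, at -1.71 ± 0.3 (SE), adjusted p = 0.000132. Without M1 replicate 2 the differences of Blvrb (0.42, adjusted p = 0.00064) and Pgd (0.21, adjusted p = 0.00922) were called as well. Gpx1 (-0.42) and Gstm1 (-0.41) were the other two genes with a more negative effect in M1.

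For M2 the positive differences were led by Me1 (1.08 ± 0.17 (SE), adjusted p = 0.000126), Srxn1 (0.99 ± 0.067 (SE), adjusted p = 5.03e-10) and Slc7a11 (0.95 ± 0.18 (SE), adjusted p = 0.00152). Slc7a11 is in this list because it fell less in M2 than in M0, not because it rose. Gclm (0.94 ± 0.091 (SE), adjusted p = 1.67e-07), Nqo1 (0.88 ± 0.24 (SE), adjusted p = 0.0251) and Blvrb (0.64 ± 0.14 (SE), adjusted p = 0.00524) followed. Osgin1, which had a large difference in M1, had one of -0.05 in M2 (adjusted p = 0.942), and Mgst2 had -0.08 (adjusted p = 0.926). The Nqo1 call was lost without M0 replicate 1 or 4, treated M0 replicate 1 or 3, or M2 replicate 2 or 3 (0.76 to 0.86, adjusted p = 0.0522 to 0.069). Calls for Gstp1 (0.58) and Abcc1 (0.26) were also lost on leaving out any of several libraries, 7 for Gstp1 (0.47 to 0.55, adjusted p = 0.07 to 0.0919).

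**Figure D3:**
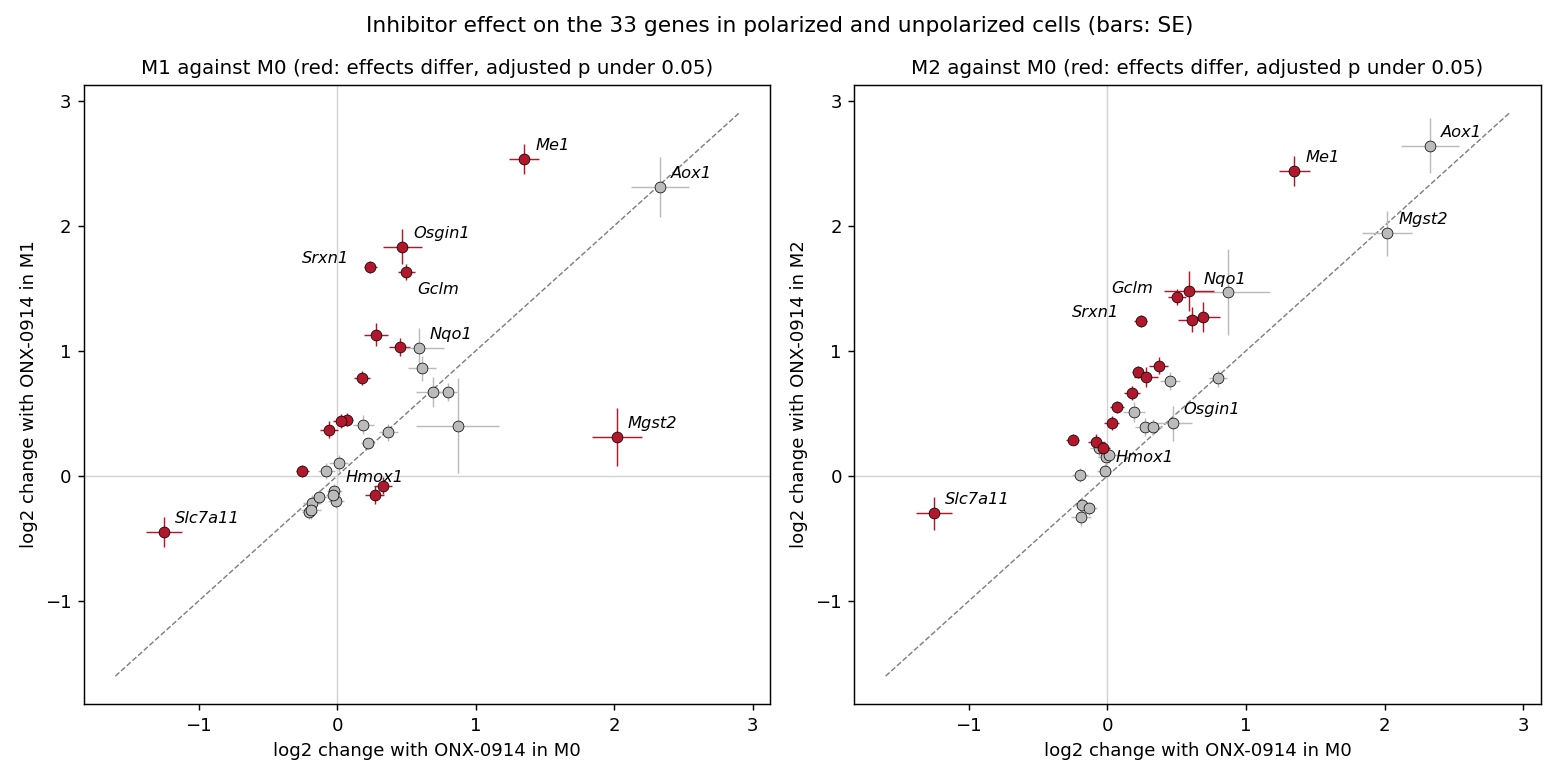
Log2 change with ONX-0914 in M0 (horizontal axis) against that in M1 (left panel, vertical axis) and in M2 (right panel, vertical axis) for the 33 genes, with bars of 1 SE. Red points are genes whose effect differed from that in M0 at an adjusted p under 0.05, and the dashed line marks equal effects. In the left panel Me1, Srxn1, Osgin1 and Gclm lie above the line and Mgst2 below it, while in the right panel no red point lies below the line.

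Without the inhibitor, M1 activation moved the 33 genes in both directions. Compared with M0, 16 were called higher and 11 lower (48.5% and 33.3%). Of all genes 34.6% were called higher and 34.2% lower (68.8% in either direction), so the share of falls was near that of all genes. The median log2 change was -0.01 for the 33 and -0.02 for all genes. All 5 genes of glutathione synthesis and cystine import and all 4 thioredoxin and peroxiredoxin genes rose, while all 3 peroxide-removing enzymes fell. Other roles were mixed. Of the 5 NADPH-generating enzymes and pathway partners, 2 were higher (G6pdx and Pgd) and 2 lower (Taldo1 and Tkt, of the non-oxidative branch). Called higher and lower were 2 and 3 of the 6 genes of quinone, carbonyl and other detoxification, and 2 and 1 of the 3 heme and bilirubin genes. Of the 5 glutathione transferases 2 fell, and of the 2 genes of export and growth control 1 rose. The summed level of the thioredoxin and peroxiredoxin genes was 2060 ± 102 CPM in M0 and 5710 ± 324 CPM in M1, and that of the peroxide-removing enzymes 1213 ± 80.8 and 564 ± 63.98 CPM. Without M1 replicate 2 the counts were 16 higher and 12 lower. Between these groups the mean T and NK cell marker sum went from 2.60 to 19.4 CPM and the B cell sum from 109.5 to 81.8 CPM. Of the 7 B cell markers 1 was called higher and 4 lower. The counts were 3 and 4 of the 8 macrophage markers and 1 and 3 of the 6 mesothelial and fibroblast markers. The neutrophil sum was 4.07 to 5.40 CPM in M0 and 5.26 to 12.1 CPM in M1, and the mast cell and basophil sum went from 1.34 to 0.382 CPM. The eosinophil sum went from 17.7 to 8.27 CPM. Of the markers of T and NK cells, eosinophils, neutrophils, and mast cells and basophils only 1 each passed the filter on low counts. The part of these cell types in the result was not tested.

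Prdx1 carried the largest M1 rise. It was at 1138, 1096, 1110 and 993 CPM in M0 and 4378, 3547, 4046 and 4178 CPM in M1, a 3.72-fold change (log2 1.90 ± 0.069 (SE), adjusted p = 2.11e-19). Slc7a11, at 46.1, 38.1, 37.96 and 51.5 CPM in M0 as given above, reached a mean of 132 CPM in M1 (log2 change 1.61 ± 0.12 (SE), adjusted p = 5.25e-12). Txnrd1 went from 256, 235, 231 and 258 CPM to 551, 507, 536 and 515 CPM (1.11 ± 0.046 (SE), adjusted p = 5.83e-18). None of the M1 libraries overlapped M0 for these 3 genes.

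Hmox1 was 2.03-fold higher in M1 than in M0 (log2 change 1.02 ± 0.055 (SE), adjusted p = 2.18e-15), with no overlap of the library values given above. Abcc1 went from 65.5, 70.3, 72.8 and 73.3 CPM to 145, 161, 151 and 141 CPM (1.09 ± 0.052 (SE), adjusted p = 1.26e-16). Gclm (0.90), Nqo1 (0.97), Esd (0.91), Blvrb (0.77), Pgd (0.69) and G6pdx (0.50) also rose, as did Srxn1 by a smaller log2 change of 0.30. Gclc had the smallest called rise, 0.16 (adjusted p = 0.0356), which was lost without M0 replicate 1, 3 or 4, without M1 replicate 1 or 3 and in 3 other fits (0.11 to 0.16, adjusted p = 0.0528 to 0.27).

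The falls in M1 were led by Gpx1, from 830.4, 764, 799 and 702 CPM to 292, 378, 273 and 301 CPM (log2 change -1.32 ± 0.073 (SE), adjusted p = 2.94e-15). Catalase went from 174, 169, 169.6 and 164 CPM to 81.3, 73.9, 76.3 and 77.6 CPM (-1.13 ± 0.05 (SE), adjusted p = 1.93e-17), and Gstm1 from 447, 473, 496 and 429 CPM to 231, 279, 228 and 213 CPM (-0.96 ± 0.068 (SE), adjusted p = 7.91e-13). M0 and M1 libraries were fully separate for all 3. Ephx1 (-0.95), Ugdh (-0.93), Taldo1 (-0.92), Blvra (-0.83), Mgst1 (-0.66), Gpx4 (-0.62), Tkt (-0.35) and Cbr3 (-0.33) fell as well. Me1, Osgin1, Aox1, Mgst2, Gsta3 and Gstp1 were not called, and Gstp1 (-0.28, adjusted p = 0.0513) was called in 8 of the settings and left-out libraries tried (adjusted p = 0.0102 to 0.0496).

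In M2 cells most called genes of the group were lower than in M0. Compared with M0, 4 were called higher and 16 lower, where 18.7% of all genes were called higher and 17.5% lower (36.2% in either direction). The median log2 change was -0.22 for the 33 and 0.01 for all genes. All 4 thioredoxin and peroxiredoxin genes fell, as did 4 of the 5 NADPH-generating enzymes and pathway partners (Me1, G6pdx, Pgd and Taldo1). Without M1 replicate 2, which is in neither group but enters the shared estimate of spread, 7 were called higher and 17 lower, and without M2 replicate 4, 2 were called higher. This comparison, M1 against M0 and the inhibitor comparison in M0 all use the same 4 M0 libraries.

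Gsr had the largest M2 fall, from 109, 103, 99.3 and 104 CPM to 56.5, 60.3, 54.8 and 60.1 CPM (log2 change -0.84 ± 0.045 (SE), adjusted p = 2.46e-14). Me1, whose M0 and M2 library values are given above, fell to 4.23 CPM (log2 change -0.67 ± 0.13 (SE), adjusted p = 0.000195) and Prdx1, at 783, 750.2, 679 and 756 CPM in M2, fell too (-0.55 ± 0.067 (SE), adjusted p = 1.99e-07). Ephx1 went from the M0 values above to 24.6, 26.4, 23.3 and 25.7 CPM (-0.54 ± 0.067 (SE), adjusted p = 2.76e-07). Gstm1 was at 313, 327, 294 and 337 CPM in M2 (-0.54 ± 0.067 (SE), adjusted p = 2.8e-07), Cat at 116, 117, 112 and 124 CPM (-0.53 ± 0.049 (SE), adjusted p = 1.24e-09) and Abcc1 at 47.02, 49.05, 51.8 and 50.2 CPM (-0.51 ± 0.053 (SE), adjusted p = 1.13e-08). Gsr, Gstm1, Cat and Abcc1 in M2 all lay below every M0 library.

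Gpx4 was the largest of the 4 M2 rises, from 284, 275, 285 and 236 CPM to 362, 402, 362 and 395 CPM (0.49 ± 0.073 (SE), adjusted p = 4.23e-06). Esd (0.38), Nqo1 (0.48, adjusted p = 0.0401) and Cbr3 (0.28, adjusted p = 0.0124) were the others. The Nqo1 call was lost without M0 replicate 1, 2 or 3, without M2 replicate 1 or 4 and in 4 other fits (0.35 to 0.50, adjusted p = 0.0531 to 0.173), and that of Cbr3 without M0 or M2 replicate 4 and in a fit with no count filter (0.22 to 0.27, adjusted p = 0.0527 to 0.0935). Smaller falls were called for Txn1 (-0.39), Gstp1 (-0.33), Blvrb (-0.33), Srxn1 (-0.29), Gpx1 (-0.28), Pgd (-0.27), Taldo1 (-0.26), G6pdx (-0.24) and Txnrd1 (-0.15). Without M0 replicate 3 the Gstp1 change was -0.22 (adjusted p = 0.18), and its call was also lost without M2 replicate 2 or 4 (adjusted p of 0.0872 at the lowest). The Txnrd1 call was lost without M0 replicate 1 or 4 and with no count filter (adjusted p = 0.0505 to 0.0686).

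The 12 genes of the NRF2 control machinery that were tested, listed beside the 33 and not among them, did not move as a block with ONX-0914. Called higher and lower were 4 and 3 in M0 (33.3% and 25.0%, against 9.54% and 11.4% of all genes), 5 and 4 in M1 (41.7% and 33.3%, against 16.6% and 27.7%) and 4 and 2 in M2 (33.3% and 16.7%, against 17.6% and 18.8%). With M1 replicate 2 left out they were 5 and 3, 5 and 4, and 5 and 2, with Cul3 called higher in M0 and M2. Nfe2l2, the message for NRF2 itself, fell in all 3 states, from 365 to 376 to 319 to 346 CPM in M0 (log2 change -0.16, adjusted p = 0.0177), from 434 to 482 to 311 to 342 CPM in M1 (-0.47, adjusted p = 4.83e-09) and from 276 to 310.4 to 252 to 265 CPM in M2 (-0.18, adjusted p = 0.00335). Sqstm1, encoding p62, was at 1574 ± 156 CPM in M1 and 3571 ± 52.7 CPM with the inhibitor, a log2 change of 1.18 (adjusted p = 1.7e-15). It rose by 0.33 in M0 and 0.95 in M2, and the rises in M1 and M2 exceeded that in M0 (differences 0.85 and 0.62, adjusted p = 1.18e-08 and 9.45e-06).

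Keap1 changed direction with the state. It rose in M0 (0.21, adjusted p = 0.0418) and M2 (0.68, adjusted p = 4.43e-08) and fell in M1 (-0.33, adjusted p = 0.000467). The M1 fall was -0.22 (adjusted p = 0.000605) without M1 replicate 2, whose Keap1 was the highest of that group. The difference from the M0 effect was -0.55 in M1 and 0.47 in M2 (adjusted p = 0.000362 and 0.00634). Among the small MAF partners, Mafg rose in all 3 states (0.37, 0.54 and 0.63), Mafk rose in all 3 (0.25, 0.30 and 0.78) and Maff in M1 (0.48). Nfe2l1, encoding NRF1, the activator of proteasome subunit genes, fell in all 3 (-0.51, -0.28 and -0.51). Bach1, a repressor that competes at the same elements, fell in M0 (-0.24) and rose in M1 (0.22), and the difference between these effects was 0.45 (adjusted p = 0.000449).

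**Figure D4:**
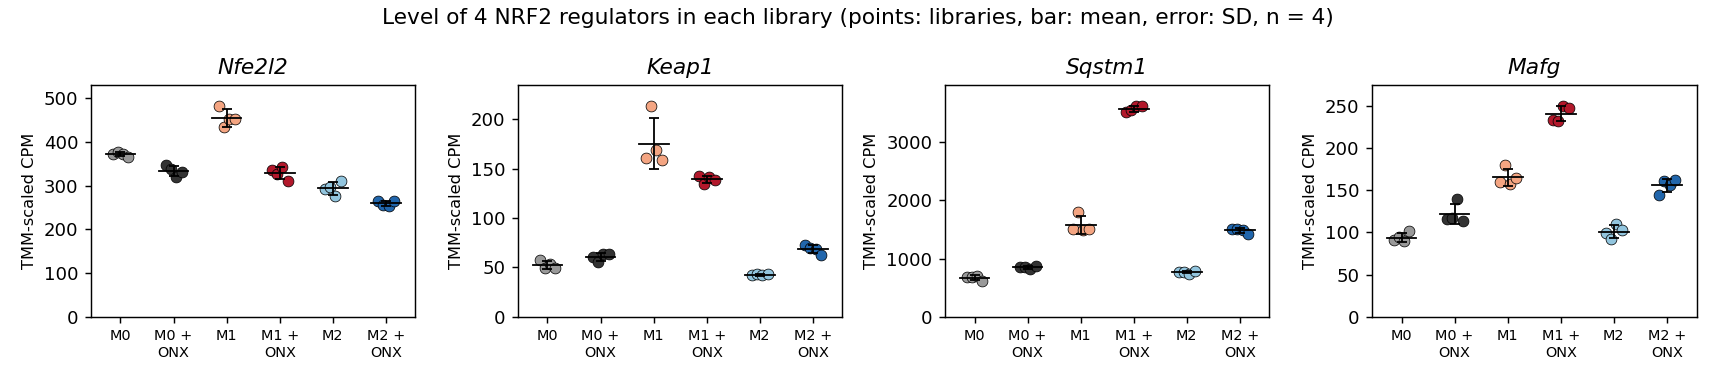
TMM-scaled CPM of Nfe2l2, Keap1, Sqstm1 and Mafg in each library of the 6 groups (points), with the group mean (bar) and SD (error, n = 4). Nfe2l2 is lower and Sqstm1 higher with ONX-0914 in each state, and replicate 2 of untreated M1 is the highest of its group for Keap1, Sqstm1 and Mafg and the lowest for Nfe2l2.

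Without the inhibitor, 10 of the 12 regulators rose in M1 and 2 fell (83.3% and 16.7%, against 34.6% and 34.2% of all genes). Maff (2.19), Mafk (1.82), Keap1 (1.74) and Sqstm1 (1.23) rose more than Nfe2l2 (0.29), and Bach2, a lymphoid relative of Bach1, fell most (-2.81). In M2, 4 rose and 2 fell (33.3% and 16.7%, against 18.7% and 17.5% of all genes), and without M1 replicate 2, 6 rose and 3 fell. Maff (1.09) and Sqstm1 (0.19) rose, and Nfe2l2 (-0.34) and Keap1 (-0.29) fell.

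A second list held 20 other NRF2 targets, of which 15 passed the filter. With ONX-0914, 5 were called higher and 1 lower in M0 (33.3% and 6.67%, against 9.54% and 11.4% of all genes), 5 and 2 in M1 (33.3% and 13.3%, against 16.6% and 27.7%) and 8 higher in M2 (53.3%, against 17.6%). Leaving out M1 replicate 2 gave 5 and 1 in M0, 6 and 1 in M1, and 8 and 1 in M2. In M1 the fall of Akr1b8 was then not called (-0.28 became -0.16, adjusted p = 0.151), and in M2 its fall was (-0.18, adjusted p = 0.0378). Pir, an iron-binding nuclear protein, led in every state, from 5.81 ± 0.754 to 11.4 ± 0.653 CPM in M0 (log2 change 0.97), from 3.23 ± 0.501 to 16.7 ± 1.34 CPM in M1 (2.36) and from 3.71 ± 0.577 to 13.1 ± 1.28 CPM in M2 (1.82). Its effect was larger in M1 (1.39, adjusted p = 1.03e-06) and in M2 (0.84, adjusted p = 0.00141) than in M0. Gstm2 rose in all 3 states (0.50, 0.44 and 0.75). Akr1b10 (0.27) rose in M0, Slc48a1 (0.32), a heme transporter, in M1, and Abcc5 (0.50), an organic anion pump, in M2. Abcc4, a related pump, fell in M1 (-0.53), and its effect there differed from that in M0 (-0.65, adjusted p = 0.000178).

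Ftl1 and Fth1 encode the ferritin chains, whose assembly stores iron. Ftl1 fell in M0 (-0.22, adjusted p = 0.0424), and in M1 its log2 change was 0.16 (adjusted p = 0.0874) with all libraries and 0.24 (adjusted p = 0.00309) without M1 replicate 2. Fth1 rose in M2 (0.30, adjusted p = 0.0233). Without the inhibitor, 11 of the 15 fell and 3 rose in M1 (73.3% fell, against 34.2% of all genes), and 9 fell in M2 (60.0%, against 17.5%). In M2, 10 fell when M1 replicate 2 was left out. Among those at 5 CPM or more in either group, Entpd5 (-1.78), Akr1b8 (-1.51), Slc48a1 (-1.12) and Pir (-0.84) fell most in M1. Below that level Ugt1a6a (-2.57, adjusted p = 0.00032) and Gsta4 (-0.98, adjusted p = 0.0188) fell too. At 5 CPM or more, Akr1b8 (2.01-fold lower), Fth1 (-0.93), Pir (-0.65) and Cbr1 (-0.43) fell most in M2, and below it Gsta4 fell by 1.38 (adjusted p = 0.0032).

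Another list held 26 genes, thiol redox enzymes together with the superoxide dismutases Sod1 and Sod2 and the transporter chain Slc3a2. Of these, 24 were tested. With ONX-0914, 5 were called higher and 6 lower in M0 (20.8% and 25.0%, against 9.54% and 11.4% of all genes), 9 and 3 in M1 (37.5% and 12.5%, against 16.6% and 27.7%) and 7 and 3 in M2 (29.2% and 12.5%, against 17.6% and 18.8%). With M1 replicate 2 left out the counts were 6 and 6, 8 and 2, and 8 and 4. Sod1, the cytosolic copper-zinc superoxide dismutase, had the largest change of the list in each state, from 61.2 ± 4.45 to 168 ± 8.40 CPM in M0 (1.46), from 62.5 ± 15.1 to 259 ± 10.4 CPM in M1 (2.05) and from 46.6 ± 2.25 to 199 ± 4.33 CPM in M2 (2.09). Slc3a2, the heavy chain that pairs with Slc7a11, rose in M0 (0.19), M1 (0.86) and M2 (0.49), while Slc7a11 fell in M0 and M1. Chac1, which degrades glutathione, fell in M0 (-1.25) and M2 (-0.83) and rose in M1 (0.73), a difference of 1.98 between M1 and M0 (adjusted p = 6.93e-09). Msra, a methionine sulfoxide reductase, fell in all 3 (-0.47, -0.61 and -0.50). Gstt2 rose (0.66) and Gpx3 fell (-0.57) in M0.

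Without the inhibitor, 10 of these 24 genes rose and 9 fell in M1 (41.7% and 37.5%, against 34.6% and 34.2% of all genes). In M2, 7 rose and 5 fell (29.2% and 20.8%, against 18.7% and 17.5%). The shares of falls were near those of all genes. Leaving out M1 replicate 2, 10 rose and 10 fell in M1, and the M2 counts were 7 and 5. Sod2, the mitochondrial superoxide dismutase, rose 19.3-fold in M1, from 80.6 ± 1.25 to 1554 ± 84.3 CPM (log2 change 4.27). Ggct (2.88) and Prdx5 (2.62) rose and Gstt2 (-1.15) fell. In M2, Glrx (1.17), glutaredoxin, and Chac1 (0.79) rose, and Msrb1 (-0.97) and Gpx3 (-0.68) fell.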

How the data were processed

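RNA of 24 libraries in 6 groups of 4 was analysed from the raw counts per Ensembl gene that the authors deposited, whole numbers without normalization. The submitters' processing notes name Bowtie2 2.2.5, Picard, FastQC 0.11.9, cutadapt 2.8 and build mm10, without their roles or order. Which counter, strand option and annotation were used is not given in those sources. Genes took symbols, positions and exon lengths from GENCODE M21 (GRCm38), in which 54409 of 54532 features matched. The unmatched ones took 0.0282% of all counts. Promoters came from RefSeq (GRCm38.p6).

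Counts were fitted in R 4.3.3 with edgeR 4.0.16 (TMM scaling, filterByExpr, quasi-likelihood test) over all 24 libraries, with 1 mean per group, no replicate block and 18 degrees of freedom left. The 14692 genes kept hold 99.927% of the counts. P-values were adjusted by Benjamini-Hochberg over all of them and called under 0.05. Of the 7 comparisons 5 are pairs of groups and 2 are differences of the inhibitor effect, M1 minus M0 and M2 minus M0. SE was obtained from the F statistic and the log2 change, and intervals are 95%. Levels are CPM, counts per 1e6 TMM-scaled counts, as mean ± SD. Depth was 18230924 to 22882972 counts per library. The script was tested on simulated data. No pair of libraries in a group agreed within sampling noise (lowest chi-square per degree of freedom 2.791).

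The 33 genes, the 3 lists of regulators, other targets and other thiol redox and related genes, and the cell markers were chosen with earlier results of these data known. All 33 genes are named. Values in every library are given for up to 8 called genes per pair of groups, and statistics for up to 6 per difference of effects, with the largest change and at least 5 CPM in the higher group. Of each list up to 4 called genes are named per comparison by the same rule, plus Nfe2l2, Keap1 and Sqstm1. Alternatives were DESeq2 1.42.0 and its size factors, 2 other filters, a replicate block, the compared libraries alone, paralog sums, and leaving out each library. The 3 lists without M1 replicate 2 were added after seeing the data.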

Additional observations from a re-analysis of the deposited data

Results flagged for a closer look

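In 12 of 198 sets of 4 libraries 1 library lay far from the other 3 by Dixon's criterion, which flags about 1 set in 20 by chance. The M1 library labelled replicate 2 accounted for 3 of them: Gsr at 149 CPM against 158 to 159, Tkt at 306 CPM against 237 to 239 and Blvrb at 213 CPM against 137 to 146. In M1 with ONX-0914, replicate 2 was low for Gss (19.7 CPM against 21.7 to 22.1) and for G6pdx (222 CPM against 242 to 244), and replicate 3 high for Cat (112 CPM against 103 to 104). In M0, replicate 1 was high for Mgst2 (1.45 CPM against 1.16 to 1.21), and in M0 with the inhibitor replicate 3 was high for Gsta3 (2.42 CPM against 1.56 to 1.68). In M2, replicate 4 was high for Cbr3 (10.5 CPM against 9.30 to 9.40) and replicate 3 low for Ugdh (121 CPM against 131 to 132). In M2 with the inhibitor, replicate 4 was low for Taldo1 (659 CPM against 709 to 718) and replicate 3 high for Cbr3 (17.4 CPM against 16.4).

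The inhibitor effect differed between M1 and M0 for 15 genes by the interaction term in edgeR. The differences, as log2 of the M1 effect minus the M0 effect, were -1.71 for Mgst2, -0.42 for Gpx1 and -0.41 for Gstm1. They were 0.29 for Txnrd1, 0.39 for Cat, 0.41 for Esd, 0.44 for Gclc, 0.59 for Mgst1, 0.60 for Taldo1 and 0.80 for Slc7a11. The largest were 0.85 for Cbr3, 1.14 for Gclm, 1.17 for Me1, 1.36 for Osgin1 and 1.43 for Srxn1.

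Between M2 and M0 it differed for 16 genes. The differences were 0.26 for Abcc1, 0.35 for Pgd, 0.40 for Esd, 0.48 for Cat, 0.48 for Taldo1, 0.50 for Prdx1, 0.51 for Cbr3, 0.54 for Txnrd1 and 0.58 for Gstp1. They were 0.61 for Gsr, 0.64 for Blvrb, 0.88 for Nqo1, 0.94 for Gclm, 0.95 for Slc7a11, 0.99 for Srxn1 and 1.08 for Me1. Both sets of differences use the same M0 libraries.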

How the results depend on the processing

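Of 1400 values of single genes under settings that keep all libraries, 1349 kept their call status, 28 lost the call and 23 gained it. With each library left out in turn, 5401 of 5544 kept their status, 98 lost the call and 45 gained it. The sign changed for 23 and 53 of these values, none of them called in either fit. No called gene of the 33 changed direction. Outside the 33, Sod1 in M1 against M0 was 0.03 with all libraries and -0.15 (adjusted p = 0.0152) without M1 replicate 2; the cause was not tested.

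The genes called lower in M0 with ONX-0914 numbered 3 in the fit reported, 5 with DESeq2 size factors, 5 with no count filter, 5 with the compared libraries alone and 6 by the DESeq2 Wald test, and 2 to 6 with a library left out. Those called lower in M1 numbered 1 in place of 7 with the compared libraries alone. In M2 against M0 those called higher numbered 2 in place of 4 with no count filter, and 2 to 7 with a library left out. Over all genes, calls for the M2 minus M0 difference went from 907 to 1590 with the compared libraries alone and ran from 660 to 1672 with a library left out. The cause of these moves was not tested. Sums with paralogs changed no call for Gstp1 or Gstm1.

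A pairing of libraries by replicate number was not seen, though the correlations used here cannot exclude a weak one. Correlations of same-numbered deviations reached -0.0518 at the lowest, and no pair of groups had all 4 over 0.1. Their mean ran from -0.0218 (treated M0 with treated M1) to 0.0573 (M1 with M2). With the number as a replicate block, 226 of 231 values kept direction and call, Gsta3 in M0 lost its call and 4 gained one. With the block 17 genes were called higher and 4 lower in M0, 18 and 7 in M1, and 27 and 4 in M2. Best own-number matches ranged from 0 to 3 of 4 libraries.

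Depth limits Aox1, Gsta3 and Mgst2 most, at a few CPM or less. Without a stated strand option, reads of Gss and G6pdx cannot be told from those of Acss2 and Ikbkg where exons overlap. Pools of 2 to 3 mice hide the spread between animals. RNA levels do not measure NRF2 protein or enzyme activity. M1 replicate 2 enters the shared spread of every comparison.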
